A study of Mus musculus with 22 samples.

Results

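The comparison sets 4 libraries from day 3 after laser burns against 4 control libraries without choroidal neovascularisation (CNV), across all genes. These 8 libraries are part of 16 from the wild-type mouse strain C57BL/6J and of 22 in the whole series. Each library is bulk RNA from the retina and choroid of adult mice, dissected together. The laser is aimed at the back of the eye to break the membrane under the pigment epithelium, and choroidal vessels then grow through the break. Both groups carry the same wild-type genome, with no transgene, deletion or drug, so the laser and the time since it are what the labels set apart. The controls were matched for age, per the series description, without a stated age. Libraries from day 7 and day 14 after the laser, 4 each, shared the estimate of the spread and serve here to place day 3 in time. Whether the libraries are from different animals is not stated in the labels, so the p-values measure only the spread between these libraries, which may be technical. Control replicate 4 is titled as without CNV while its treatment tag names the laser. It was kept as a control, and the main counts are also given without it.

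The burn kills photoreceptors and pigment epithelium at its centre and stresses the retina around it. Stressed photoreceptors are known to release endothelin 2, and Muller glia, the radial glia of the retina, respond to cytokines of the interleukin 6 family through the shared receptor chain gp130 and the factor Stat3. Microglia and blood-borne macrophages enter the wound in the first days, and new vessels and scar tissue follow. In bulk RNA, fewer cells of a type and less RNA per cell cannot be told apart, which bears on each fall described here.

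The day 3 libraries held 16050724 to 16848254 counts and the controls 15033983 to 16151836. The 4 controls resembled each other more closely (Pearson r of log2 CPM across genes 0.979 to 0.987) than the 4 day 3 libraries did (0.953 to 0.983). Day 3 replicate 3 stood apart from the other 3. Genes of the cornea and conjunctiva, tissues at the front of the eye, took 1.44%, 0.943%, 3.26% and 0.488% of the counts in day 3 replicates 1 to 4, against 0.812%, 0.521%, 0.382% and 0.26% in control replicates 1 to 4. Lens genes took 1.84%, 2.81%, 1.51% and 2.3% at day 3, against 0.0541%, 0.603%, 0.121% and 0.0141% in control. Every day 3 library thus held more lens RNA than every control, while the cornea and conjunctiva shares overlapped. Rods marked both groups as retina, with 22 phototransduction genes at 3.01% to 4.99% of counts at day 3 and 6.7% to 7.46% in control. The part that RNA of the front of the eye played in the results was not tested. A fit with lens and cornea scores as covariates is given beside the others. Since the lens shares of the groups did not overlap, that fit cannot tell the laser and lens RNA apart. It may lose calls or shift a median for that reason alone.

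**Figure D1:**
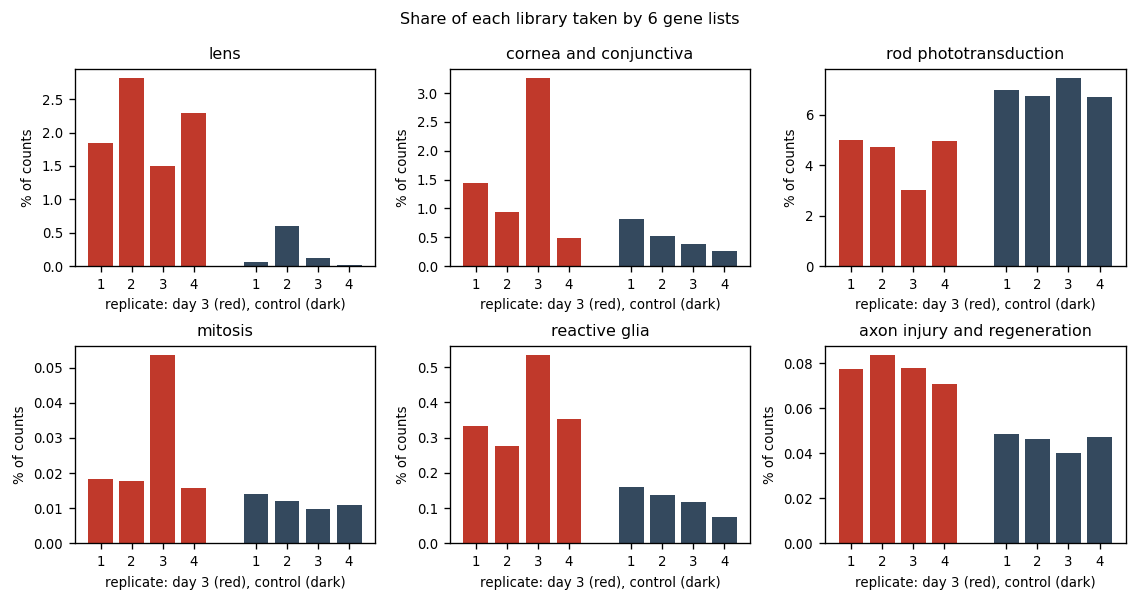
Percent of all counts (vertical axes) taken by 6 gene lists in each library, day 3 replicates 1 to 4 (red) left of control replicates 1 to 4 (dark). Lens shares were higher in all 4 day 3 libraries, cornea and conjunctiva and mitosis shares peaked in day 3 replicate 3, and rod shares were lower in all 4.

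Of 18657 genes tested with edgeR's quasi-likelihood method, 2749 changed at day 3 at an adjusted p threshold of 0.05, which is 14.7% of those tested. Of these, 1300 were higher (6.97%) and 1449 lower (7.77%) than in control, and 761 higher (4.08%) and 401 lower (2.15%) genes moved at least 2-fold. Without a test, 3251 genes (17.4%) had all 4 day 3 libraries above all 4 controls and 4260 (22.8%) had them below. The median log2 fold change over all tested genes was 0.01, and scaling by library totals moved it to -0.02.

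The number of calls depended strongly on single libraries. It was 861, 490, 292 and 639 without control replicates 1 to 4, and 1222, 2409, 465 and 1012 without day 3 replicates 1 to 4. Without day 14 replicate 1, which is in neither group but widens the shared spread, it was 6188, and with only the 8 libraries compared it was 7171. With lens and cornea scores as covariates 813 genes were called, of which 438 were among the 2749. In all, 265 genes, 141 higher and 124 lower, were called in every one of the 8 fits that left out 1 library of the groups compared, and 145 of those also with the covariates. Below, a gene is said to hold in so many of these 8 leave-one-out fits. Counts of called list members are to be read beside the shares over all genes tested, 6.97% higher and 7.77% lower.

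**Figure D2:**
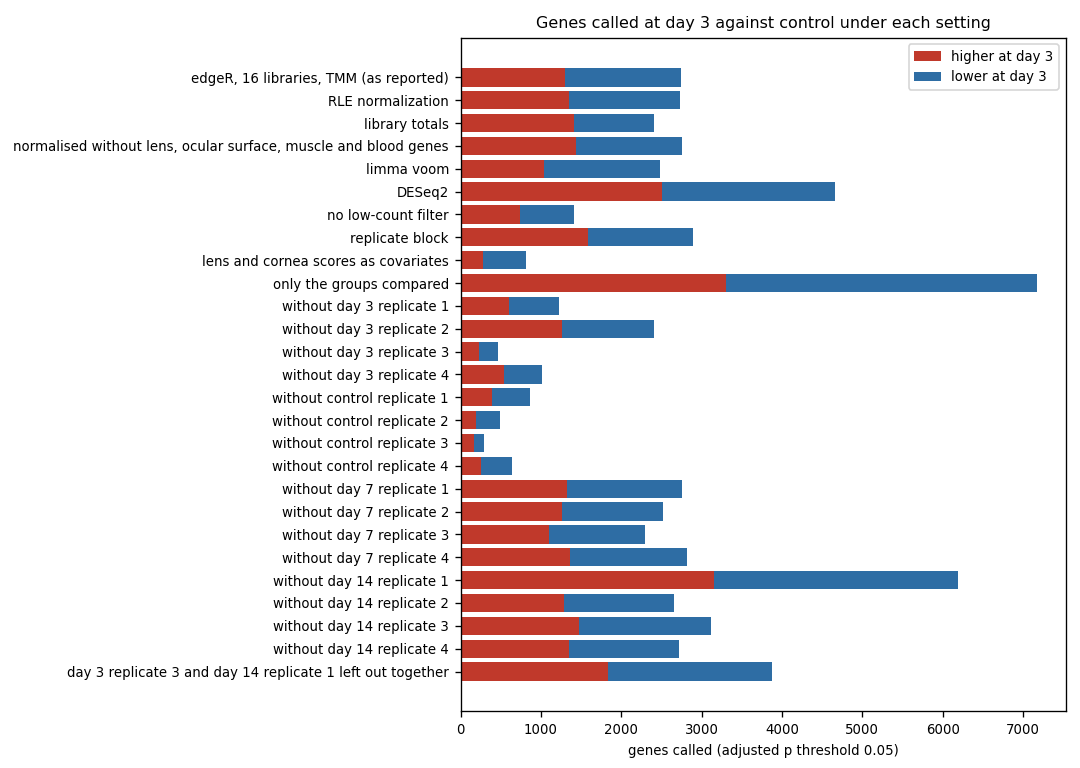
Genes called at day 3 against control (horizontal axis, number of genes) under each setting, split into higher (red) and lower (blue). The count ran between 292 without control replicate 3 and 7171 with only the 8 compared libraries, against 2749 in the fit reported.

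The change with the smallest p was in the endothelin system. Edn2, the endothelin that stressed photoreceptors release, lies on chromosome 4, 120161206 to 120167360 (mm10). It had 126, 143, 62.9 and 179 CPM (the usual depth-scaled count, here with TMM factors) in day 3 replicates 1 to 4, against 5.38, 5.97, 4.07 and 4.68 CPM in control replicates 1 to 4. The lowest day 3 library, replicate 3, was still far above every control. The log2 fold change was 4.66 ± 0.37 (SE, edgeR adjusted p = 4.32e-05), held in all 8 leave-one-out fits and was 4.96 in the covariate fit. Edn2 was the only one of 7 endothelin genes called in the fit reported and in the covariate fit. With only the 8 compared libraries edgeR called 4 of the 7 (7171 over all genes), among them Ednra and Ece1 (adjusted p 0.0166 and 0.0392). The receptor Ednra, found on smooth muscle and pericytes, had 2.82 to 6.42 CPM at day 3 and 2.15 to 2.62 CPM in control, without overlap but with an adjusted p of 0.0869. Ednrb, the receptor that glia carry, had 11.3 to 18.2 CPM at day 3 and 10.1 to 14.8 CPM in control (adjusted p = 0.946). The processing enzyme Ece1 had 69.4 to 121 CPM and 57.2 to 61.3 CPM (adjusted p = 0.166), with the 121 CPM in day 3 replicate 3.

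Genes of gp130 and Stat3 signalling rose, 8 of 16 tested, and none fell (median log2 fold change of the list 1.22, against 0.01 over all genes). The ligands come first. Lif, leukaemia inhibitory factor, had 2.51, 3.92, 3.97 and 5.83 CPM at day 3, against 0.866, 0.853, 1.21 and 0.78 CPM in control. The groups did not overlap, and the log2 fold change of 2.12 ± 0.37 (SE, adjusted p = 0.00782) held in all 8 leave-one-out fits. Clcf1, a cytokine that acts through the receptor of ciliary neurotrophic factor, rose by 0.94 on the log2 scale (adjusted p = 0.0317) and held in 1 of the 8. Among ligands too low to test, Il6 had 0, 1, 37 and 0 raw counts at day 3, so its reads came almost wholly from replicate 3, against 0, 0, 0 and 1 in control.

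Of the receptor chains 1 rose. Osmr, the chain specific to oncostatin M, had 49.3, 44.5, 73 and 54.1 CPM at day 3, against 27.9, 21.6, 25 and 16.3 CPM in control (log2 fold change 1.28 ± 0.29 SE, adjusted p = 0.0186, held in 4 of 8). The shared chain Il6st, which is gp130 itself, had 126 to 168 CPM and 102 to 126 CPM (adjusted p = 0.342). With only the 8 compared libraries its edgeR adjusted p was 0.0409. Lifr had 75.2 to 78.7 CPM and 77.8 to 94.3 CPM (adjusted p = 0.383). The kinases Jak1, Jak2 and Tyk2 were not called (adjusted p 0.226, 0.521 and 0.151). Downstream, Stat3 stood at 183, 222, 201 and 227 CPM at day 3 and at 85.2, 86.5, 81.1 and 72.9 CPM in control. Its day 3 values lay close together, replicate 3 included, and the rise of 1.36 ± 0.20 on the log2 scale (SE, adjusted p = 0.00446) held in all 8 fits.

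Genes known to be induced by Stat3 rose as well. Socs3, the feedback inhibitor of gp130 signalling, had 17.3, 18.7, 64.9 and 37.1 CPM at day 3, against 5.75, 5.18, 5.4 and 5.2 CPM in control. All 4 day 3 libraries were above control, replicate 3 highest (log2 fold change 2.68 ± 0.46 SE, adjusted p = 0.00782, held in 8 of 8). Bcl3, a nuclear partner of NF-kappaB, rose by 3.46 ± 0.58 (adjusted p = 0.00779), and by 2.82 without day 3 replicate 3. Cebpb and the kinase Pim1 rose by 1.65 and 1.43 and lost the call without day 3 replicate 3, at 1.17 and 1.05 (adjusted p 0.111 and 0.163). Leaving out control replicate 3, control replicate 4 or day 3 replicate 3 in turn left 4 calls in the list each time, and with the covariates 2 of the 16 were called, Stat3 and Bcl3.

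Promoters of genes from these groups are shown because the data bear on 2 families of factors whose own genes rose, Stat3 and the AP-1 factors described next. Sequences are RefSeq's (GRCm38.p6, the same build as mm10), 250 bases before to 50 bases after the start, 5′ to 3′ on the gene's strand. Capitals mark matches to the STAT motif TTCNNNGAA or the AP-1 motif TGANTCA, both of which read the same on either strand. Edn2 leads the comparison and had no match in this window, Socs3 and Gfap had a STAT match, and Sprr1a and Mmp12 had AP-1 matches. The last 4 were chosen for their matches, and Mmp12 has another promoter in the table without one.
Edn2, chr4:120160956-120161255, plus strand: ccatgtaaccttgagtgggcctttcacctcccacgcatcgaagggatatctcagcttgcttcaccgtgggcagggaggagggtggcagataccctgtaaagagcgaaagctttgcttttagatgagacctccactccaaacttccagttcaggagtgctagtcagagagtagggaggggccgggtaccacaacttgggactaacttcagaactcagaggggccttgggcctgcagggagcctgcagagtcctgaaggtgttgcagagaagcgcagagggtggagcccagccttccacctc
Socs3, chr11:117969317-117969616, minus strand: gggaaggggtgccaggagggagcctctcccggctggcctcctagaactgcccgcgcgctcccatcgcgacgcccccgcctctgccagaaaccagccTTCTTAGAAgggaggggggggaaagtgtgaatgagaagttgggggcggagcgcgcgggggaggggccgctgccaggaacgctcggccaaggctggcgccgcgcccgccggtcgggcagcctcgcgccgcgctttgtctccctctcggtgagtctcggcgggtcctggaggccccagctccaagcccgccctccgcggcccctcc
Gfap, chr11:102897151-102897450, minus strand: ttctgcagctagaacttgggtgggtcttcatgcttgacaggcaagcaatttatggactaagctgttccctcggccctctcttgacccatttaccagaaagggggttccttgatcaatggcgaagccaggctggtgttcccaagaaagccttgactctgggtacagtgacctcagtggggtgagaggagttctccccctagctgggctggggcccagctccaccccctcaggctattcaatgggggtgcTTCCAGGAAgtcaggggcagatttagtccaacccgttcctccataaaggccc
Sprr1a, chr3:92485832-92486131, minus strand: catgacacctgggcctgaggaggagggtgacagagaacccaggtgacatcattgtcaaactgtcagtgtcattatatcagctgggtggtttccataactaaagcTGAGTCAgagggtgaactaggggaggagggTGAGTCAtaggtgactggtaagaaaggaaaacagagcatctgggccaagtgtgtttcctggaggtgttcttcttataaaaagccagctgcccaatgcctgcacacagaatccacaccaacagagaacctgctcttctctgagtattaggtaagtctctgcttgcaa
Mmp12, chr9:7347124-7347423, plus strand: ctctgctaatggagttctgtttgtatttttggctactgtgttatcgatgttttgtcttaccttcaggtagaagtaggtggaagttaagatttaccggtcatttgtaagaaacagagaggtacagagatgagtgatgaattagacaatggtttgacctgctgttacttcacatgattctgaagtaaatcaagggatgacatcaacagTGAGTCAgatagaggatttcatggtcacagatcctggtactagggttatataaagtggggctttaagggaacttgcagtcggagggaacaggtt
Positions are those of the first base of a match. In Socs3 the match TTCTTAGAA begins 154 bases before the start. In Gfap TTCCAGGAA begins 2 bases before the start and runs across it. Sprr1a holds TGAGTCA at 146 and at 116 bases before the start, and Mmp12 holds it at 44. Of promoters of genes called higher, 9.7% of 1185 held the STAT motif and 7.59% the AP-1 motif. Of those of genes called lower, 5.6% of 1356 held the STAT motif and 5.6% the AP-1 motif. Over all tested genes with a promoter in the table the shares were 6.91% and 5.59% of 16322, and over all 32851 promoters 8.3% and 7.81%. In the gp130 and Stat3 list 1 of 25 promoters (4%) held the STAT motif and 5 (20%) the AP-1 motif. Of 22 promoters of immediate early genes 1 (4.55%) held the STAT motif and 0 the AP-1 motif. Of 18 promoters of reactive glia genes 4 (22.2%) held the STAT motif and 3 (16.7%) the AP-1 motif. Of 17 promoters of axon injury genes 0 held the STAT motif and 3 (17.6%) the AP-1 motif. The share in all higher genes was above that of tested genes for both motifs, as a description without a test.

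Immediate early genes, which cells switch on within minutes of a stimulus, were higher at day 3 than in control, with 11 of 21 called higher and none lower (median log2 fold change 0.77). Fosb, an AP-1 subunit, had 13.8, 10.4, 8.87 and 11.2 CPM at day 3, against 3.22, 3.48, 4.96 and 3.44 CPM in control, a log2 fold change of 1.55 ± 0.20 (SE, adjusted p = 0.00279, held in 8 of 8). Jun, its partner, rose by 0.95 ± 0.18 (adjusted p = 0.0116, 8 of 8), with 134 CPM in day 3 replicate 3 and 82.9 to 89.6 CPM in the other 3. Egr2, a zinc finger factor, had 0.483 to 1.39 CPM at day 3, while controls had 0 to 0.124 CPM, under the 0.19 CPM that 3 counts make. Fosb, Jun, Egr2 and Atf3 were called in all 8 leave-one-out fits, and without control replicate 3 or day 3 replicate 3 the list had 4 calls.

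Genes of the response to axon injury rose in part, 8 of 19 tested (median 1.15), and none fell. Ecel1, a membrane peptidase that injured neurons make, had 38.6, 65.2, 4.7 and 61.5 CPM at day 3, against 0.186, 0.59, 0.445 and 0.52 CPM in control. Replicate 3 was by far the lowest at day 3 and still above every control, and the log2 fold change was 6.59 ± 1.06 (SE, adjusted p = 0.0063, 8 of 8). Atf3, a factor that injured neurons and other stressed cells switch on, had 27.6, 38, 15.2 and 37.6 CPM, against 6.93, 6.62, 9.53 and 8 CPM (log2 fold change 1.93 ± 0.34 SE, adjusted p = 0.00833). Sox11, a factor of regrowing ganglion cells, had 8.14, 12.3, 2.05 and 12.2 CPM at day 3, against 1.71 to 2.73 CPM in control. Its replicate 3 fell within the control range, and without that library the log2 fold change was 2.42, against 2.09 with it.

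The neuropeptide Gal behaved like Sox11 over the day 3 libraries, with 2.51, 5.31, 1.52 and 5.65 CPM, against 0.124 to 0.853 CPM in control (log2 fold change 2.89, adjusted p = 0.0141, 7 of 8). Adcyap1, the neuropeptide PACAP, had 5.88, 11.9, 1.19 and 10.4 CPM, against 1.97 to 2.82 CPM, and was not called with all libraries (adjusted p = 0.0599), but was without day 3 replicate 3 (adjusted p = 0.03) and with the covariates (adjusted p = 0.0153). Sprr1a, a small proline-rich protein made by injured neurons and by surface epithelium, went the other way. It had 15.4, 13.1, 96.9 and 16.4 CPM, against 0.715 to 1.3 CPM in control, so replicate 3 was the highest (log2 fold change 5.18 ± 0.94 SE, and 3.94 without replicate 3). The other called members were Plaur, Tubb2b and Klf6. The growth cone genes Gap43, Stmn2 and Basp1 were not called (adjusted p 0.147, 0.781 and 0.954). With the covariates 8 of the 19 were called, among them 5 of these 8.

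**Figure D3:**
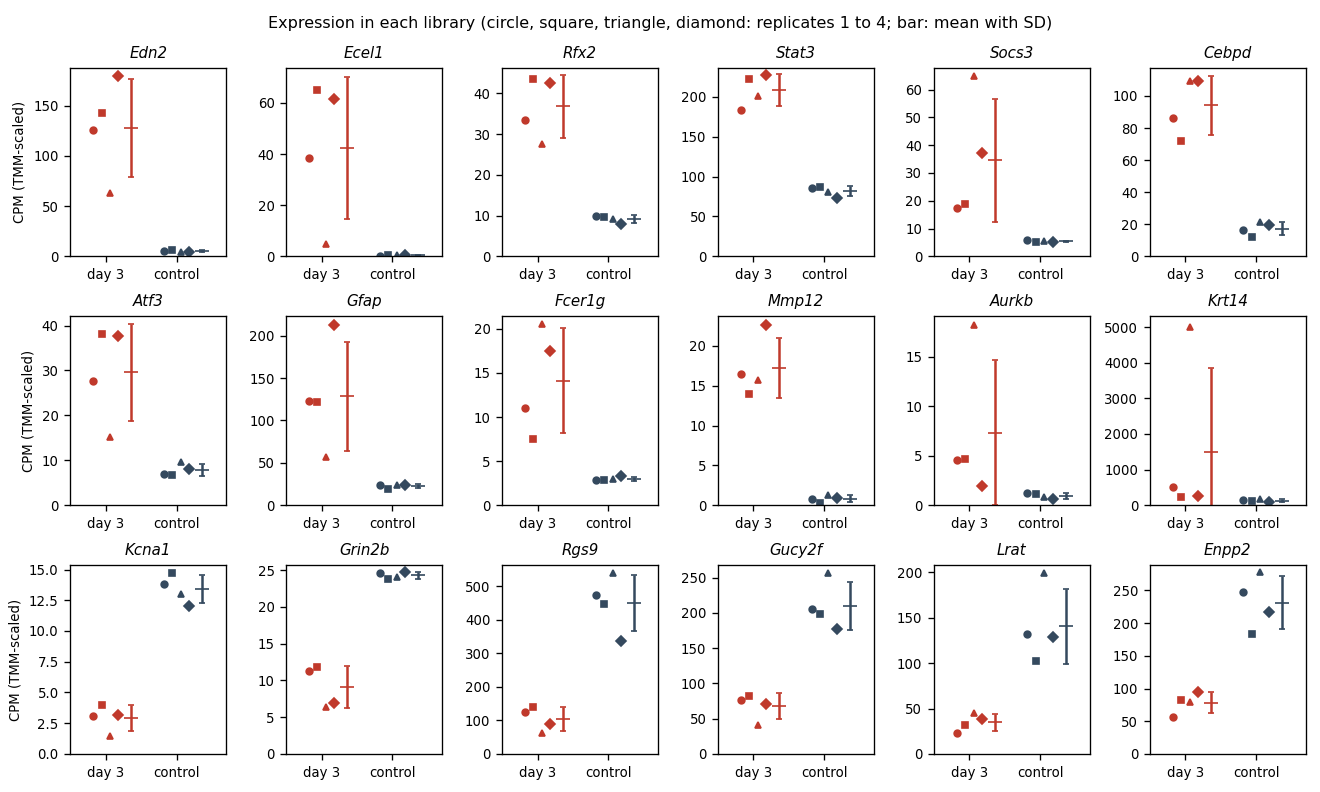
CPM (vertical axes, from 0) of 18 genes in each of the 4 day 3 libraries (red, left) and 4 controls (dark, right), with symbols for replicates 1 to 4 and a bar for mean and SD (cut at 0 for Aurkb and Krt14). Edn2, Ecel1 and Atf3 are lowest in day 3 replicate 3, a triangle, while Socs3, Aurkb and Krt14 are highest in it.

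Rfx2, a factor of ciliogenesis, had the third smallest p of the comparison, and its values were even. It had 33.5, 43.6, 27.5 and 42.6 CPM at day 3, against 9.9, 9.77, 9.09 and 7.93 CPM in control (log2 fold change 2.0 ± 0.22 SE, adjusted p = 0.000831, 8 of 8, and 1.83 with the covariates). Tnnt2, the troponin T of heart muscle, had 18.3, 28.4, 8.87 and 26.5 CPM, against 1.36 to 2.67 CPM (log2 fold change 3.31 ± 0.41 SE, adjusted p = 0.00279). Its values followed those of Ecel1, lowest in replicate 3. Other muscle genes such as Myl1 had 85.7 to 166 CPM at day 3 and 21.6 to 71.9 CPM in control, with the 166 CPM in replicate 1.

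Stress pathways gave few calls that held. Their counts of rises stand beside 6.97% called higher over all genes tested. Of 17 genes of the integrated stress and unfolded protein response 3 rose (median 0.33), among them Atf5, a mitochondrial stress factor, by 1.15 ± 0.23 (SE, adjusted p = 0.013, 8 of 8). Of 14 targets of Nrf2, the factor of oxidative stress, 5 rose. Hmox1, which degrades haem, had 38.1, 25.6, 26.9 and 26.9 CPM at day 3, against 4.07 to 6.43 CPM in control (log2 fold change 2.48 ± 0.61 SE, adjusted p = 0.0238, 3 of 8). In the metallothionein and iron list 5 of 14 rose and 1 fell. The ferritin chains Ftl1 and Fth1 rose by 0.98 and 0.66, and the transferrin receptor Tfrc, which imports iron, fell to 94.2 to 106 CPM, against 162 to 176 CPM in control (adjusted p = 0.0385). The 3 moves held in 2, 1 and 0 of the 8 leave-one-out fits. Of 12 heat shock genes 2 rose, of 14 targets of p53 4 rose and 1 fell, and of 13 targets of Yap and Tead 4 rose, and none of these calls held in all 8.

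Of 18 genes of the NF-kappaB and Tnf response, 8 rose and 1 fell. Tnfrsf12a, the receptor of the cytokine Tweak, had 25.8, 30.8, 37.2 and 41.7 CPM at day 3, against 8.04, 6.62, 5.97 and 7.67 CPM in control (log2 fold change 2.26 ± 0.31 SE, adjusted p = 0.00323, 8 of 8). It was the only member to hold in all 8, and the list had 1 call without control replicate 3, without day 3 replicate 3 or with the covariates. Ripk3, the kinase of necroptosis, had 2.51, 1.99, 15 and 1.43 CPM, against 0.328 to 0.557 CPM, so all 4 were above control but replicate 3 set the size (log2 fold change 3.57, and 2.18 without it).

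Phagocyte genes rose together. In the list of the phagocyte oxidase and myeloid signalling 12 of 16 rose (median 1.79), and 5 of 7 Fc receptor genes did (median 2.23). Spi1, the factor PU.1 that myeloid cells need, had 4.53, 2.66, 9.67 and 7.49 CPM at day 3, against 1.36, 0.394, 1.27 and 1.1 CPM in control (log2 fold change 2.55 ± 0.46 SE, adjusted p = 0.00957, 8 of 8). Fcer1g, the signalling chain of Fc receptors, had 11, 7.48, 20.5 and 17.5 CPM, against 2.82 to 3.25 CPM. The receptors for immunoglobulin G Fcgr1, Fcgr3 and Fcgr4 rose by 2.31, 2.09 and 3.78 (Fcgr4 by 4.47 without control replicate 4). All 5 Fc receptor calls held in every leave-one-out fit, and none held with the covariates. In the larger list 2 calls held in every one of them, with 2 calls without control replicate 3, 3 without day 3 replicate 3 and 0 with the covariates (median 0.91). Replicate 2 was the lowest of the day 3 libraries in Spi1, Fcer1g and each of these 3 receptors, and replicate 3 the highest.

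Lysosomal genes, which all tissues use, and microglial genes rose in part. Of 18 lysosomal genes 8 rose (median 0.74), with the macrophage marker Cd68 at 18.8, 11, 28.8 and 22.7 CPM at day 3 and 4.59 to 5.44 CPM in control, and the protease Ctss rising by 1.96. Of 17 genes of lipid-associated macrophages 10 rose and of 12 of homeostatic microglia 6 did, among the latter list P2ry13, an ADP receptor, by 1.90. In all 8 leave-one-out fits 2 lysosomal, 3 lipid-associated and 2 homeostatic calls held, and with the covariates the lists had 0, 1 and 2 calls. These were partly different genes, since 0, 1 and 0 genes passed both checks. P2ry13 held in 8 of 8 but not with the covariates (adjusted p = 0.137). Without control replicate 3 the lists had 2, 3 and 3 calls. Toll-like receptor 1, Tlr1, and Ly86, a partner of a related receptor, had among the 10 smallest p of rising genes (log2 fold changes 2.71 ± 0.35 and 2.32 ± 0.30 SE, both adjusted p = 0.00279, 8 of 8). Of 12 genes of MHC class I presentation 4 rose, none held in all 8 and 0 were called with the covariates. All 12 had a positive log2 fold change (median 1.52, and 0.36 with the covariates). In 7 of the 12 all day 3 libraries were above all controls, as in 17.4% of all genes. DESeq2 called 10 of them (4665 over all genes), and edgeR with only the 8 compared libraries also 10 (7171 over all genes). H2-D1 had 415, 237, 829 and 264 CPM, against 110 to 190 CPM. Of 7 class II genes edgeR called 0, with 6 higher at an unadjusted p under 0.05, while DESeq2 called 5 and limma voom 0.

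Of 11 genes of leukocyte and endothelial adhesion 6 rose and 1 fell (median 1.18), and 1 held in all 8 leave-one-out fits. With the covariates this list had 1 call, which was another gene. Of 14 coagulation and fibrinolysis genes 5 rose, and with the covariates 1 was called. Plat, the tissue plasminogen activator, had 26.1, 22.7, 27.8 and 29.5 CPM at day 3, against 10.1, 8.46, 9.02 and 11.1 CPM in control, without overlap and with little spread (log2 fold change 1.46 ± 0.22 SE, adjusted p = 0.00527, 8 of 8). Of 21 genes of endothelial sprouting 1 rose, Aplnr, the apelin receptor, with 1.9, 1.81, 2.32 and 5.53 CPM at day 3 and 0.124 to 0.191 CPM in control. The control values of Aplnr stood at 2 or 3 raw counts each. Vegfa, the vessel growth factor that CNV treatment targets, had 142 to 190 CPM at day 3 and 194 to 226 CPM in control (log2 fold change -0.27 ± 0.16 SE, adjusted p = 0.22, and 0.08 with the covariates). Its receptor Kdr had 121, 161, 76.3 and 222 CPM, against 107 to 125 CPM (adjusted p = 0.278). Of 13 junction genes 1 rose, Pecam1, with 12.9 to 19.1 CPM and 6.89 to 9.21 CPM (adjusted p = 0.0317), and 1 of the 8 leave-one-out fits kept the call. Over all genes tested 6.97% were called higher, so by its 1 call alone neither the sprouting nor the junction list is set apart. All 13 junction genes had a positive log2 fold change (median 0.75, and 0.17 with the covariates, with 0 calls). In 5 of them all 4 day 3 libraries were above all 4 controls, as in 17.4% of all genes. Of the 21 sprouting genes 15 were positive (median 0.46), with 3 above all controls and 2 below. With only the 8 compared libraries 8 sprouting and 6 junction genes were called (7171 over all genes). Glycam1, a sulphated ligand of L-selectin, had 4.04, 5.13, 3.51 and 11.9 CPM, while 3 controls were at 0 and control replicate 2 at 0.262 CPM.

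Matrix genes rose in part. Of 14 collagens 4 rose, namely Col1a1, Col1a2, Col3a1 and Col5a2, all of fibril-forming types, and Col8a1, a short-chain collagen of basement membranes, fell. Col1a1, Col1a2, Col5a2 and Col8a1 held in 2, 1, 6 and 0 of the 8 leave-one-out fits. With the covariates none of the 4 rises was called, and the list median was -0.04, against 1.17 without them. Col3a1 had 111, 47.6, 128 and 162 CPM at day 3, against 16.6, 9.77, 20.7 and 10.6 CPM in control (log2 fold change 2.96 ± 0.59 SE, adjusted p = 0.0126, 8 of 8). Lox, which cross-links collagen, had 11.1, 6.1, 14.4 and 18.7 CPM, against 0.68, 0.459, 1.08 and 0.52 CPM. Replicate 2 was the lowest day 3 library in both, and the order of the 4 was the same. Mmp12, the macrophage elastase, had 16.5, 13.9, 15.7 and 22.6 CPM, against 0.328 to 1.33 CPM (log2 fold change 4.36 ± 0.60 SE). Lox and Mmp12 held in all 8 fits and with the covariates (3.24 and 3.54). Mmp3, stromelysin, had 16.2, 2.54, 77 and 16.4 CPM, against 1.25 to 4.19 CPM, with overlap (log2 fold change 3.53, and 2.28 without day 3 replicate 3, adjusted p = 0.11). Of the 8 annexin and S100 genes called of 13, only Anxa3 held in all 8. With the covariates the list had 1 call, which was another gene, and Anxa3 was not called (adjusted p = 0.156).

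Reactive glia gave 12 rises of 18 tested genes and no fall (median 1.91), and 6 of them held in all 8 leave-one-out fits, while 5 genes were called with the covariates. Cebpd, a factor of the acute response, had 86.1, 71.6, 110 and 109 CPM at day 3, against 16.2, 11.9, 21.2 and 19.4 CPM in control (log2 fold change 2.45 ± 0.33 SE, adjusted p = 0.00311, 8 of 8). Gfap, whose promoter is printed above, had 122, 122, 56.6 and 213 CPM at day 3, against 23.6, 19.3, 23.9 and 23.7 CPM in control. Lcn2, a secreted iron-binding protein of reactive glia and epithelium, had 81.6, 15.4, 180 and 90.9 CPM, against 3.9 to 6.48 CPM (log2 fold change 4.18 ± 0.64 SE, adjusted p = 0.00527, 8 of 8). Replicate 3 was lowest in Gfap and highest in Lcn2. Among 13 genes of resting Muller glia 2 rose and 2 fell. Crym, a thyroid hormone binding protein, had 88.6, 116, 86.7 and 294 CPM, against 24.5 to 36.8 CPM (log2 fold change 2.31 ± 0.33 SE, adjusted p = 0.00426), with replicate 4 high, and 1.72 without that library. Glul, glutamine synthetase, fell to 1870, 1432, 1702 and 1290 CPM, against 2493, 2474, 2610 and 2832 CPM in control (log2 fold change -0.73 ± 0.16 SE, adjusted p = 0.0156, 7 of 8). Per gene length this was 475 ± 78.7 FPKM at day 3 and 776 ± 44.6 FPKM in control (SD, n = 4 each), the largest fall in mean FPKM of any called gene without overlap.

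Mitotic genes rose, 14 of 21 (median 1.92), and the calls depended on single libraries. Aurkb, a mitotic kinase, had 4.59, 4.65, 18.1 and 1.9 CPM at day 3, against 1.24, 1.11, 0.826 and 0.585 CPM in control. Ccnb1, cyclin B1, had 4.16, 3.74, 21.1 and 2.14 CPM, against 0.635 to 1.49 CPM. All 4 day 3 libraries were above control in both genes, and replicate 3 held more than the other 3 together. Without day 3 replicate 3 the log2 fold changes of Aurkb and Ccnb1 were 1.97 and 1.73 (2.94 for both with it), 0 of the 21 genes were called and the median was 1.03. The count was also 0 without control replicate 3, 0 without control replicate 4 and 0 with the covariates, and limma voom called 1 with all libraries. In other settings more were called. DESeq2 called 17 of the 21 (4665 over all genes), and edgeR with only the 8 compared libraries 13 (7171 over all genes). Without day 14 replicate 1 the count was 17 (6188 over all genes). Over the 8 leave-one-out fits it ran between 0 and 12. Krt14, a basal keratin of surface epithelium, had 521, 232, 5013 and 246 CPM at day 3 and 86.2 to 164 CPM in control. Krt16, a keratin of activated epithelium, had 13.6, 7.79, 1516 and 27.5 CPM, against 2.56 to 5.01 CPM. Their log2 fold changes were 3.59 and 6.6, and 1.42 and 2.02 without replicate 3. The mitotic and keratin values thus peaked in the same library, and their part in each other was not tested.

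Rod genes were lower in every one of 22 members, and 7 of them fell (median -0.69). In all 22 the 4 day 3 libraries lay below the 4 controls, as they did in 22.8% of all genes. Rgs9, which turns off transducin, had 126, 139, 61.3 and 90 CPM, against 473, 447, 539 and 338 CPM (log2 fold change -2.11 ± 0.50 SE, adjusted p = 0.0217, 4 of 8), and its anchor Rgs9bp fell by 1.01. Grk1, a kinase of rods, fell by 0.96 and the exchanger Slc24a1 by 1.0. The retinal guanylate cyclase Gucy2f had 77, 82, 41 and 70.6 CPM, against 177 to 257 CPM. Rgs9bp, Grk1, Slc24a1 and Gucy2f each held in 0 of the 8 leave-one-out fits. Without day 3 replicate 3 or control replicate 3, 0 of the 22 were called. With only the 8 compared libraries 21 of the 22 were called (7171 over all genes). Without day 14 replicate 1, which widens the shared spread, 16 were called (6188 over all genes). With the covariates 0 were called and the median was 0.25, the opposite sign. Among 11 cone genes Gnb3, the cone transducin beta subunit that ON bipolar cells also use, rose instead. It had 706, 793, 454 and 845 CPM at day 3, against 346, 350, 343 and 409 CPM in control (log2 fold change 0.95 ± 0.24 SE, adjusted p = 0.026, 2 of 8, and 1.75 with the covariates). The cone opsins Opn1sw and Opn1mw were not called (adjusted p = 0.374 and adjusted p = 0.223). Still, the median of the cone list was -0.50, and 7 of its 11 genes had all day 3 libraries below all controls. With only the 8 compared libraries edgeR called 9 of the 11, among them Opn1sw and Opn1mw (adjusted p 0.0245 and 0.0122). With the covariates 1 was called and the list median was 0.48.

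Voltage-gated potassium and HCN channels, which set the firing and resting potential of neurons and photoreceptors, fell in 12 of 20 genes (median -1.02), the highest share of calls among the neuronal lists. Kcna1, a shaker channel of axons, had 3.12, 3.98, 1.46 and 3.15 CPM at day 3, against 13.8, 14.7, 13 and 12 CPM in control (log2 fold change -2.19 ± 0.52 SE, adjusted p = 0.0208, 5 of 8). Kcna2, with which it forms joint channels, had 36.7, 31.7, 27.1 and 28.6 CPM, against 82.7 to 87.2 CPM. Kcnh5 fell by 2.09 and was the only channel to hold in all 8 leave-one-out fits. The groups were far apart in these genes, and replicate 3 was the lowest day 3 library in each. The list had 1 call without day 3 replicate 3 or without control replicate 3, and 0 with the covariates (median -0.64).

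Fewer receptor and synapse genes were called in the fit reported, though most lay below control. All 4 day 3 libraries were below all 4 controls in 12 of 16 glutamate receptor genes. The same held for 16 of 17 glycine and GABA genes and 15 of 17 synaptic vesicle genes. It held for 17 of 20 channels and for 22.8% of all genes. With only the 8 compared libraries, 13, 16 and 14 genes of these lists and 19 channels were called, with 7171 of all 18657. Of 16 glutamate receptor genes 3 fell (median -0.73, and -0.08 with the covariates, with 1 call). Grin2b, an NMDA receptor subunit, had 11.3, 11.8, 6.42 and 6.96 CPM at day 3, against 24.6, 23.8, 24 and 24.7 CPM in control (log2 fold change -1.41 ± 0.25 SE, adjusted p = 0.00845, 8 of 8, and -1.21 with the covariates). The 4 controls lay within 1 CPM of each other. Of 17 glycine and GABA genes 2 fell, beside 7.77% called lower over all genes tested. Their median was -0.68, but 0.21 with the covariates, with 0 calls. One of the falls was the glycine receptor Glra1, with 0.397 to 1.29 CPM and 4.33 to 6.42 CPM (log2 fold change -2.69 ± 0.56 SE, adjusted p = 0.0142). Of 17 synaptic vesicle genes 5 fell, including the active zone scaffolds Bsn and Pclo by 1.06 and 1.24, and none held in all 8. The median of the vesicle list was -0.70, but 0.17 with the covariates, with 0 calls. Adora1, the adenosine A1 receptor that damps transmitter release, had 24.6, 22.3, 18.9 and 21.6 CPM, against 36.1 to 39.8 CPM (log2 fold change -0.79 ± 0.11 SE, adjusted p = 0.0029, 8 of 8). Onecut1, a factor of horizontal and ganglion cells, had 0 to 0.604 CPM, against 1.92 to 2.67 CPM.

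**Figure D4:**
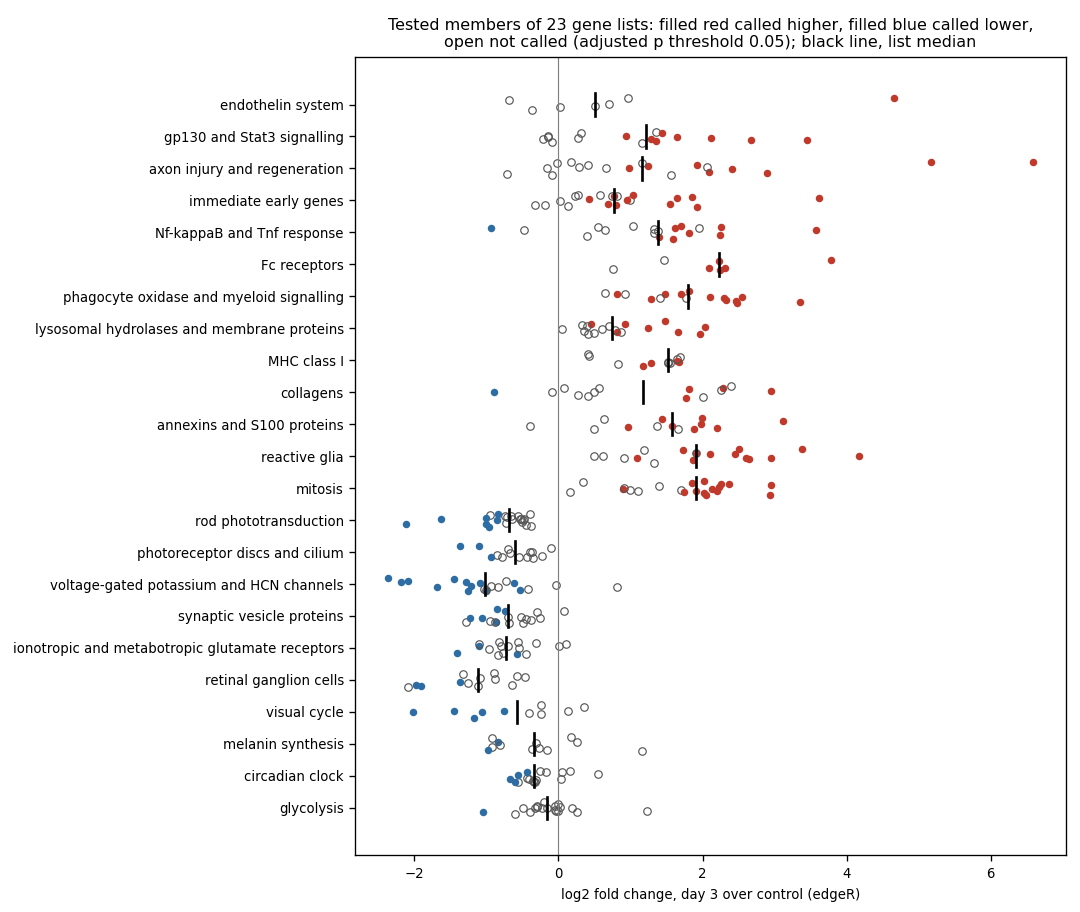
Log2 fold change at day 3 over control (horizontal axis) of each tested member of 23 gene lists, filled where called (red higher, blue lower) and open where not, with the list median as a black line. Injury, phagocyte, glial and mitotic lists lie right of 0 and rod, channel and synapse lists left of it, while glycolysis had 1 call of 19.

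In the visual cycle, by which the pigment epithelium rebuilds the light-sensitive form of retinal, 5 of 10 genes fell (median -0.58). Lrat, which stores retinol as esters, had 22.6, 32.4, 45.2 and 38.8 CPM at day 3, against 132, 102, 199 and 129 CPM in control (log2 fold change -2.02 ± 0.34 SE, adjusted p = 0.00779, 8 of 8). Here replicate 3 was the highest of the day 3 libraries, unlike in the neuronal genes. Rpe65, the isomerase, fell to 53 to 104 CPM, against 168 to 280 CPM (adjusted p = 0.0164, 7 of 8). Stra6, the retinol uptake receptor, Rdh10 and the opsin Rgr fell by 1.17, 0.75 and 1.06 and held in 3, 3 and 0 of the 8. Rdh5, which oxidises retinol in the same cells, had 96.1 to 146 CPM and 138 to 180 CPM (adjusted p = 0.208). The visual cycle calls fell to 1 without control replicate 3, to 2 without day 3 replicate 3 and to 0 with the covariates. Enpp2, the enzyme autotaxin, which the pigment epithelium secretes, had 56, 82.8, 79.9 and 94 CPM, against 247, 183, 278 and 217 CPM (log2 fold change -1.57 ± 0.22 SE, adjusted p = 0.00366, 8 of 8). Transthyretin, Ttr, another abundant product of these cells, was not called (adjusted p = 0.442).

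Clock genes fell modestly, 4 of 17 (median -0.34), all of them repressors or output factors of the clock. Per3 had 117, 124, 113 and 98.2 CPM at day 3, against 175, 173, 174 and 164 CPM in control (log2 fold change -0.60 ± 0.13 SE, adjusted p = 0.0145, 7 of 8). Cry1 and Cry2 fell by 0.68 and 0.56 and Hlf by 0.43. Dbp, a clock output gene with a large daily swing, had 138 to 149 CPM and 126 to 172 CPM (adjusted p = 0.877). The labels do not state the hour of dissection. Of 19 glycolysis genes 1 fell, Hk2, a hexokinase of photoreceptors, with 218 to 375 CPM and 578 to 661 CPM (adjusted p = 0.023, 3 of 8). That count is no more than the 7.77% called lower over all genes tested.

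Several of the falls with the smallest p were small and even over the libraries. Rab11fip4, an adaptor of recycling endosomes, had 63.9, 55.6, 57.5 and 54.5 CPM at day 3, against 98.5, 104, 96.4 and 109 CPM in control (log2 fold change -0.82 ± 0.08 SE, adjusted p = 0.000182, 8 of 8). It had the second smallest p of all genes. Tet3, which oxidises methylated DNA, had 148 to 173 CPM and 253 to 280 CPM (log2 fold change -0.72 ± 0.11 SE, adjusted p = 0.00527). Jarid2, a cofactor of the Polycomb repressor, and Pou2f1, an octamer-binding factor, fell by 0.61 and 0.85. Tet3, Jarid2 and Pou2f1 held in all 8 fits and with the covariates. Zbtb16, a zinc finger factor, had 4.04, 2.11, 2.98 and 2.26 CPM, against 14.8, 12.9, 19 and 20.2 CPM (log2 fold change -2.55 ± 0.51 SE, adjusted p = 0.0126, 8 of 8).

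Lymphocyte and neutrophil genes were near the limit of these libraries. The series asks about natural killer (NK) cells. Of 14 NK genes 2 could be tested, and the receptor genes Ncr1 and Klrb1c had 0 to 2 raw counts in every day 3 library and 0 to 1 in every control. Of the 2, the chemokine Ccl5 was called at an adjusted p of 0.0499, with 1.47, 0.604, 3.84 and 1.67 CPM at day 3 and 0.13 to 0.853 CPM in control, and had a log2 fold change of 1.87, or 1.27 without day 3 replicate 3 (adjusted p = 0.189). The neutrophil calgranulin S100a9 had 3.61, 0.664, 66.2 and 0.654 CPM, against 0 to 0.889 CPM, so its log2 fold change of 5.40 became 1.97 without replicate 3 (adjusted p = 0.346). Csf3r, the receptor that neutrophils need to mature, had 4.53, 3.02, 20.2 and 3.81 CPM, against 0.656 to 0.845 CPM, and held in all 8 fits (log2 fold change 3.41, and 2.35 without replicate 3). Ighm, the heavy chain of immunoglobulin M, had 4.35, 2.96, 3.84 and 3.39 CPM, against 0.845 to 1.08 CPM (log2 fold change 1.94 ± 0.29 SE, adjusted p = 0.00488, 8 of 8). The B cell gene Cd79a beside it had 5 to 12 raw counts per day 3 library and 4 to 5 per control.

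Lens crystallins were among the largest rises, with 6 of 21 lens genes called. Crygd had 1889, 1260, 491 and 345 CPM at day 3, against 30.6, 10.5, 12.6 and 8.26 CPM in control (adjusted p = 0.0419, 0 of 8). Cryge and Crygf, near-identical copies whose reads may be split between them, had 16.9 to 157 and 26.5 to 180 CPM, against at most 0.495 and 0.318 CPM (log2 fold change of Crygf 8.59, and 7.99 without day 3 replicate 1). Cryga had 6.67, 6.76, 1.52 and 1.01 CPM and no count in any control, at least 20.8-fold higher when each control is set to 3 counts. With the covariates 0 of 21 lens genes were called, since the score is built from them.

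The later days were set against day 3 directly. At day 7 edgeR called 0 of 18657 genes different from day 3 (0%), with 1144 at an unadjusted p under 0.05, while DESeq2 called 45 and limma voom 0. At day 14 it called 1 (0.00536%), with 1263 unadjusted, while DESeq2 called 103 and limma voom 3. The 1 gene was Tnip2, an inhibitor of NF-kappaB signalling. It had 38.9, 40.9, 38 and 38.8 CPM in control, 53, 64.6, 48.6 and 63.5 CPM at day 3, 29.9 to 37.6 CPM at day 7 and 29.5 to 35 CPM at day 14. Day 3 lay above all controls and day 14 below them, with a log2 fold change of -0.81 ± 0.11 from day 3 to day 14 (SE, adjusted p = 0.0332). The call was lost, with 0 genes called, in the fits without any 1 control, without day 3 replicate 1, 2 or 4, without day 7 replicate 3 or 4, without day 14 replicate 2, 3 or 4, with the replicate block and with only the groups compared. Without day 14 replicate 1, 1290 genes differed between day 14 and day 3, and without day 3 replicate 3, 13 did.

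The leading genes of day 3 took different courses in their means, none of which passed the test between days. Edn2 averaged 5.02 ± 0.828 CPM in control, 128 ± 48.5 CPM at day 3, 84.4 ± 31.9 CPM at day 7 and 45.4 ± 12 CPM at day 14 (SD, n = 4 each). Socs3 averaged 5.38 ± 0.265, 34.5 ± 22.2, 9.82 ± 1.38 and 9.4 ± 6.93 CPM over the same 4 groups, with every day 7 library below every day 3 library (adjusted p for day 7 against day 3 0.429). Stat3 averaged 81.4 ± 6.16, 209 ± 20.1, 122 ± 18.4 and 115 ± 44.9 CPM. Rab11fip4, among the falls, averaged 102 ± 5.73, 57.9 ± 4.18, 61.1 ± 1.36 and 71.1 ± 3.42 CPM, and Lrat 141 ± 41.3, 34.8 ± 9.6, 50.9 ± 14.9 and 53.3 ± 23.5 CPM. Both stayed below every control library at day 7 and at day 14.

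**Figure D5:**
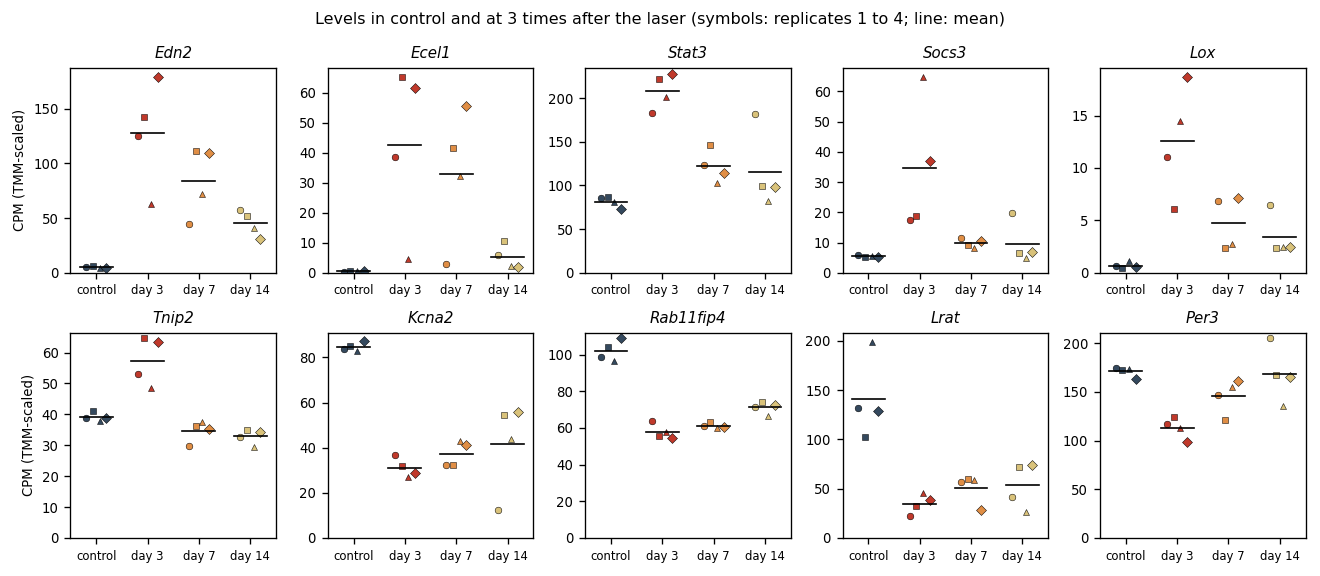
CPM (vertical axes, from 0) of 10 genes in control and at day 3, day 7 and day 14, with a symbol per library and a line for the mean. Socs3, Stat3 and Tnip2 are highest at day 3, and Rab11fip4 and Lrat stay below control at each later day.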

How the data were processed

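The authors deposited a table of raw counts per gene with FPKM values beside them for the wild-type libraries. Reads were counted with featureCounts 1.5.0-p3 on the mouse build mm10, as the submitters' processing notes state. How reads were aligned, which annotation was used and whether strand was counted is not given in the sources used here, so overlapping genes and near-identical copies may share reads. FPKM values are the authors' own, normalised for depth and gene length, and were used as deposited. They served only to rank genes by the change in mean FPKM between day 3 and control, and for Glul, without a test.

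Counts of 16 libraries (control, day 3, day 7 and day 14, 4 each) were fitted together with edgeR 4.0.16 in R 4.3.3 (TMM scaling, filterByExpr set to at least 10 counts and a total of at least 15, robust quasi-likelihood F test, Benjamini-Hochberg adjustment over 18657 genes, threshold 0.05). The SE of a log2 fold change is its size divided by the square root of F. CPM values are counts scaled to the TMM-adjusted library size. Genes named were taken from the smallest p and largest changes in each direction, the largest changes in FPKM, the 4 lowest p-values in every list, and all members of the endothelin, gp130, axon injury, NK and visual cycle lists. Col8a1, Dbp, Kdr, Opn1mw, Opn1sw, Tnip2 and Vegfa stand outside that rule and were chosen after their values were seen. The comparison, the gene lists and the rules were chosen with earlier results of these data known. Alternatives were DESeq2 1.42.0, limma 3.58.1 (voom), other scalings and filters, a replicate block, lens and cornea scores as covariates, fewer groups and each library left out. The edgeR script was tested on simulated data. Libraries of the Rag2 mice were not used here, and some genes are not reported here.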

Additional observations from a re-analysis of the deposited data

Results flagged for a closer look

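A library was picked out where its gap to the nearest of its group of 4 was large for the group's range, which chance does in about 1 in 20 groups. Of 244 groups tested 28 were picked out, 13 of them in day 3 replicate 3 and 12 in a control. In day 3 replicate 3 the high values were Ece1 at 121.4 CPM, Clcf1 at 17.62, Cebpb at 54.24, Sprr1a at 96.88, Jun at 133.9, Ripk3 at 14.97, Tlr1 at 2.914, Aurkb at 18.15, Ccnb1 at 21.13, Krt14 at 5013, Krt16 at 1516, S100a9 at 66.22 and Csf3r at 20.2 CPM. In other day 3 libraries, Hmox1 had 38.14 CPM in replicate 1, and Aplnr had 5.53 and Crym 294.1 CPM in replicate 4. In control replicate 1 Myl1 was high at 71.94 CPM. In control replicate 2 Ednrb (10.1 CPM), Gfap (19.28), Tlr1 (0.1968) and Opn1mw (128.4) were low and Glycam1 (0.2624) was the only control above 0. In control replicate 3 Fosb (4.956 CPM), Sox11 (2.732), Aplnr (0.1906) and Col1a2 (50.19) were high, and in control replicate 4 Gnb3 (408.6) and Dbp (171.8).

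Tnip2 differed between days, with a log2 fold change of -0.805 for day 14 against day 3. Every day 3 library was above every control, while every library of day 7 (mean 34.77 CPM) and of day 14 (mean 32.88 CPM) was below, and the opposite sides were not tested as such.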

How the results depend on the processing

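Against 2749 genes called at day 3, separate fits called 4665 with DESeq2, 1406 with no low-count filter, 813 with lens and cornea scores as covariates (438 of them among the 2749) and 7171 with only the 8 libraries compared. Leaving out 1 library at a time gave 292 (control replicate 3) to 6188 (day 14 replicate 1). Scaling by library totals gave 2409 calls, of which 58.3% were higher, against 47.3% in the fit reported. For day 7 against day 3, 0 calls became 45 with DESeq2, 3 with the covariates, 15 without day 3 replicate 3 and day 14 replicate 1 together, and 0 to 15 with 1 library left out. For day 14 against day 3, 1 call became 4 with library totals, 103 with DESeq2, 3 with limma voom, 2 with no filter, 121 with the covariates, 0 with only the groups compared, 576 without both libraries, and 0 to 1290 with 1 left out. The replicate block gave 2897, 0 and 0 calls in the 3 comparisons. Same-numbered day 3 and control libraries had deviations correlated at 0.148, 0.142, -0.067 and 0.301. Libraries with different numbers had -0.425 to 0.417, the highest for day 3 replicate 3 with control replicate 1. These values do not settle whether the numbers pair the samples, and the fit reported used no pairs. Leaving out later-day libraries, and 2 libraries together, was chosen after seeing the data. Of 103 called genes named with values none changed sign under the alternatives run, while 40 were called with the covariates, 52 without control replicate 3 and 62 without day 3 replicate 3. Among genes not called, the log2 fold change turned with the covariates in Ednra (-0.079), Ednrb (-0.123), Ece1 (-0.16), Il6st (-0.177), Stmn2 (0.943), Vegfa (0.079), Opn1sw (0.518) and Opn1mw (0.482). Ednrb was -0.001 with library totals and -0.148 to 0.103 with 1 library left out. Basp1 was 0.01 without tissue genes in the scaling, 0.01 with no filter, 0.068 without both libraries and -0.09 to 0.055 with 1 left out, and Dbp ran between -0.002 and 0.151. The cause of these moves was not tested.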

Other observations

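The non-coding gene Gm29374 had no count in any control and a mean of 4.71 CPM at day 3, at least 24.6-fold higher when each control is set to 3 counts. Its gene model lies on the same strand as Ecel1 with 671 bases between the models. Gp2, a surface glycoprotein, had no count in any control either and was at least 13.6-fold higher.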
